A study of Mus musculus with 8 samples.

Results

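The genes described here encode the enzymes that place methyl groups on lysine and arginine residues of histones, the demethylases that remove them, and the subunits that work with them. They were taken as all non-control array probes whose gene name begins with Kdm, Mll, Kmt2, Setd, Setmar, Suv39h, Suv420h, Ehmt, Nsd1, Whsc1, Prmt, Carm1, Dot1l, Ash1l, Ash2l, Rbbp5 or Dpy30, or is Wdr5. This gave 101 probes of 62 genes, out of 39429 probes and 30175 gene names on the array. Of these genes 58 passed the filter on dim probes and were tested, among 17977 tested genes in all, and 52 of the 58 were above the floor on all 8 arrays. Prmt8, Kdm5d, Kdm4d and Suv39h1 were at the floor on at least 7 of the 8 arrays and were not tested. The name pattern also takes in 6 tested Mllt genes, which are named as fusion partners of MLL in leukemia and are not methyltransferases, so they are described separately.

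The samples were feeder-free E14 mouse embryonic stem cells (ESCs), cultured with LIF and infected with lentiviruses that carry short hairpin RNAs (shRNAs), and RNA was taken 72 h after infection. Control KD cells received an shRNA against GFP, Tip60 KD and Hdac6 KD cells an shRNA against the named gene, and double KD cells the shRNAs against both. Each group had 2 biological replicates, A and B, each on its own 1-colour array. Every knockdown (KD) rests on 1 hairpin per gene, so that an effect of the target and an effect of that hairpin cannot be told apart, and arrays of whole cultures cannot tell fewer cells that express a gene from less RNA per cell.

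Histone methylation carries different meanings at different residues. Trimethylation of lysine 4 of histone H3 (H3K4), placed by the MLL and SET1 complexes around the shared subunits Wdr5, Rbbp5, Ash2l and Dpy30, marks active promoters, methylation of H3K36 follows transcribed gene bodies, and methylation of H3K9 marks silent chromatin. Demethylases of the Kdm families reverse these marks, and arginine methyltransferases of the Prmt family act on histones and on many other proteins. Tip60 (gene Kat5) is the acetyltransferase of the Tip60-p400 complex, and Hdac6 is a deacetylase better known for its action on tubulin in the cytoplasm.

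Promoter windows are shown for members called in the same direction in all 3 knockdowns, since these are the genes that the results below turn on most: for each direction, the pair with the largest mean change over the knockdowns that was above the floor on all arrays and had a single promoter window in RefSeq. Each runs from 250 bases before to 50 bases after the annotated start, 5′ to 3′ on the strand of the gene, in build GRCm38.p6. The window of Mllt6 is chr11:97663162-97663461 (+ strand), that of Prmt5 chr14:54517421-54517720 (- strand), that of Setd7 chr3:51560774-51561073 (- strand) and that of Prmt7 chr8:106210804-106211103 (+ strand). Capitals mark matches on either strand to the E-box CACGTG, the CCAAT box CCAAT or the GC box GGGCGG, and neighbouring matches may overlap.
Mllt6: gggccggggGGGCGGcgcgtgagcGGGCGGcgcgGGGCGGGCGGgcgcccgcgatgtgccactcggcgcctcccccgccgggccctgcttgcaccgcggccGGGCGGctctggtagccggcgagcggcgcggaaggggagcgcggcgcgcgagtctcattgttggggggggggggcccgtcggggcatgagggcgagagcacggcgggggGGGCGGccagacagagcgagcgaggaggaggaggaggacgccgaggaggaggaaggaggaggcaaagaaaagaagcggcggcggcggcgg
Prmt5: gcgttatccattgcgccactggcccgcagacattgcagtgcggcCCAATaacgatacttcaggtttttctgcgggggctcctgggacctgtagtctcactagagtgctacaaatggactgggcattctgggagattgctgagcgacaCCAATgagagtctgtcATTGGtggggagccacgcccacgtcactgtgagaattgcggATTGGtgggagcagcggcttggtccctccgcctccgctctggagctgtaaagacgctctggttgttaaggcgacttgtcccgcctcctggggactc
Setd7: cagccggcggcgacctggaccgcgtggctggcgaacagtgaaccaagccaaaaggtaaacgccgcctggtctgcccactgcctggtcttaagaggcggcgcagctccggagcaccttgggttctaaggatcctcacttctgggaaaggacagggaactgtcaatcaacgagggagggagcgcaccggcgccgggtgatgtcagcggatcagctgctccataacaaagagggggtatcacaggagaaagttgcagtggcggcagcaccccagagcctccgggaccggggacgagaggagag
Prmt7: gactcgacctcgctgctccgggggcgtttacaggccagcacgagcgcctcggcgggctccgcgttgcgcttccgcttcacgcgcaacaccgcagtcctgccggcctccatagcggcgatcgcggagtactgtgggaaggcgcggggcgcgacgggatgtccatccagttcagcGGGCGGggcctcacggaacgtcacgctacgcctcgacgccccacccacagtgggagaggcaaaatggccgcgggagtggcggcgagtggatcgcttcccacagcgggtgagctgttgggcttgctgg

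Mllt6 and Prmt5, which rose, differed in these letters. The Mllt6 window held 6 GC boxes and no CCAAT box, and the Prmt5 window 4 CCAAT boxes and no GC box. Among the genes that fell, Setd7 held no match and Prmt7 held 1 GC box. Over the 61 windows of the 44 tested members with an entry, 62.3% held a GC box, 39.3% a CCAAT box and 9.84% an E-box, beside 35.7%, 37.4% and 7.15% of all 32851 windows. Of the 10 windows of members higher in all 3 knockdowns, 5 held a GC box and 6 a CCAAT box, and of the 6 windows of members lower in all 3, 5 held a GC box and 2 a CCAAT box. These counts describe letters in a window and are no test.

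The depth of the arrays limited the dim members. Between 21896 and 40609 of 43020 non-control spots were well above background, with the fewest in control KD B, which also had the highest subtracted background (median 114 against 37.2 to 89.0 on the other arrays). Among the replicate A arrays control KD A likewise had the fewest such spots (31179) and the highest background (61.0). Depth and background thus differed between control KD and the knockdowns on both slides, and their part in the changes of dim members was not tested. Replicate A of every group lay on 1 slide and replicate B on the other, and each group kept its position on both slides, so position and group cannot be told apart. Values are log2 of the processed signal over the 75th percentile of the array, with a floor of -2.78, and each gene is read from its lead probe, the one brightest on average. Kat5 fell to -0.10 and -0.08 after Tip60 KD from 1.25 and 1.30 in control KD (replicates A and B), and Hdac6 to -0.37 and -0.40 after Hdac6 KD from 2.13 and 2.10. In double KD the values were -0.19 and 0.12 for Kat5 and 0.21 and 0.26 for Hdac6, so both labels held, and Hdac6 was also lower after Tip60 KD (-0.45 ± 0.07, adjusted p = 0.00502). Hdac6 was less depleted in double KD than in Hdac6 KD. Comparisons of double KD with Hdac6 KD, or with both single knockdowns, therefore set unequal depletion of Hdac6 side by side, and its part in them was not tested. All 8 ESC markers were tested, with summed levels of 290 to 293 times the 75th percentile in control KD, 288 to 297 after Tip60 KD, 280 to 281 after Hdac6 KD and 298 to 311 after double KD. Nanog and Tdgf1 had no value on Tip60 KD A, so the 288 of that array leaves them out and is not comparable with the other sums. Of these, 2 rose and 1 fell after Tip60 KD, 2 rose after Hdac6 KD, and 3 rose and 1 fell with both hairpins. Of the markers of other cell types, both tested of 5 trophectoderm markers fell after Tip60 KD and after double KD and 1 after Hdac6 KD. In each of the 3 knockdowns 1 of 4 neural markers (Tubb3) rose, 1 of 2 tested of 4 mesoderm markers rose after Tip60 KD, and 2 of 3 tested of 5 fibroblast markers rose after Tip60 KD and after double KD. Neither of the 2 tested of 6 primitive endoderm markers was called, and Cdx2, Elf5, Gata6, Sox7, Dab2, Foxa2, T and Postn were not above the floor on any array. The summed trophectoderm level was 12.6 to 13.3 in control KD, 5.52 to 5.90 after Tip60 KD, 9.57 to 10.4 after Hdac6 KD and 6.34 to 7.18 after double KD, and the summed neural level 2.05 to 2.27, 3.97 to 4.29, 2.38 to 2.72 and 3.68 to 3.97. Primitive endoderm markers summed to 0.988 to 1.11, 0.872 to 1.19, 0.872 to 1.19 and 0.872 to 1.17, mesoderm markers to 1.02 to 1.29, 1.53 to 1.59, 1.36 to 1.47 and 1.35 to 1.41, and fibroblast markers to 1.91 to 2.11, 2.50 to 2.92, 1.98 to 2.05 and 2.62 to 2.89, in the same order. Their part in the changes below was not tested.

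Depletion of Tip60 moved histone methylation genes in both directions. In Tip60 KD 15 of the 58 tested members were higher than in control KD and 16 were lower, at an adjusted p below 0.1 (limma, Benjamini-Hochberg over all genes tested), which is what "called" means below. That is 53.4% of the members, beside 40.4% of all genes, of which 19.1% were higher and 21.3% lower. The members were brighter than the genes they are set beside (median level 1.18 against -0.34 over all genes). The shares here and below are not matched for level. Setd1b, Rbbp5, Prmt5 and Kdm3a rose most among the members above the floor on all arrays, and Setd7, Prmt7, Kdm2a and Setd6 fell most. The median change over the members was 0.02 on the log2 scale, against 0.05 over all genes. At 2-fold or more 5 members were called, beside 904 of all 17977 genes. With the slide as a replicate block 40 members were called (69.0%), beside 60.4% of all genes.

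In Hdac6 KD 12 members were higher and 11 lower (39.7%), beside 30.0% of all genes (14.0% higher, 16.0% lower). Setd1b, Mllt3, Ash1l and Kdm2b led the rise and Setd6, Prmt7, Kdm4b and Kdm2a the fall. The median was -0.02, against 0.02 over all genes, and 1 member passed 2-fold, beside 438 of all 17977 genes. The replicate block called 39 (67.2%), beside 52.9% of all genes. Counts with an array left out, here and below, are given without the share of all genes. A drop in them is not to be read as particular to the members. Calls dropped to 11 without control KD A, 15 without control KD B, 14 without Hdac6 KD A and 12 without Hdac6 KD B.

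Double KD gave 15 members higher and 9 lower (41.4%), beside 33.7% of all genes (16.0% higher, 17.7% lower). Among the members above the floor on all arrays Setd1b, Mllt6, Kdm3a and Mllt3 rose most, and Setd7, Prmt7, Setd6 and Kdm2a fell most, while Whsc1, with 1 array at the floor, was lower still (-0.89). The median was -0.00, against 0.05 over all genes, and 1 member passed 2-fold, beside 528 of all 17977 genes. With the replicate block there were 39 (67.2%), beside 55.4% of all genes. Without control KD A 12 members were called, without control KD B 14 and without double KD A 14.

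The 3 comparisons share the control arrays, so their calls are not independent. In all 3 knockdowns 17 members were called, 29.3% of the 58, beside 18.8% of all genes. Ash1l, Carm1, Kdm5c, Mllt10, Mllt3, Mllt6, Prmt3, Prmt5, Setd1b, Setd2 and Whsc1l1 were higher in each, and Kdm1b, Kdm2a, Prmt7, Setd3, Setd6 and Setd7 were lower in each. Members called in none numbered 22, or 37.9%, beside 48.9% of all genes. With 2 arrays a group, control and knockdown arrays did not overlap in 39, 40 and 40 members (Tip60 KD, Hdac6 KD, double KD). The same held for 10893, 10115 and 10285 of all 17977 genes. Every called member was among those without overlap, so for a called member the lack of overlap adds little.

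**Figure D1:**
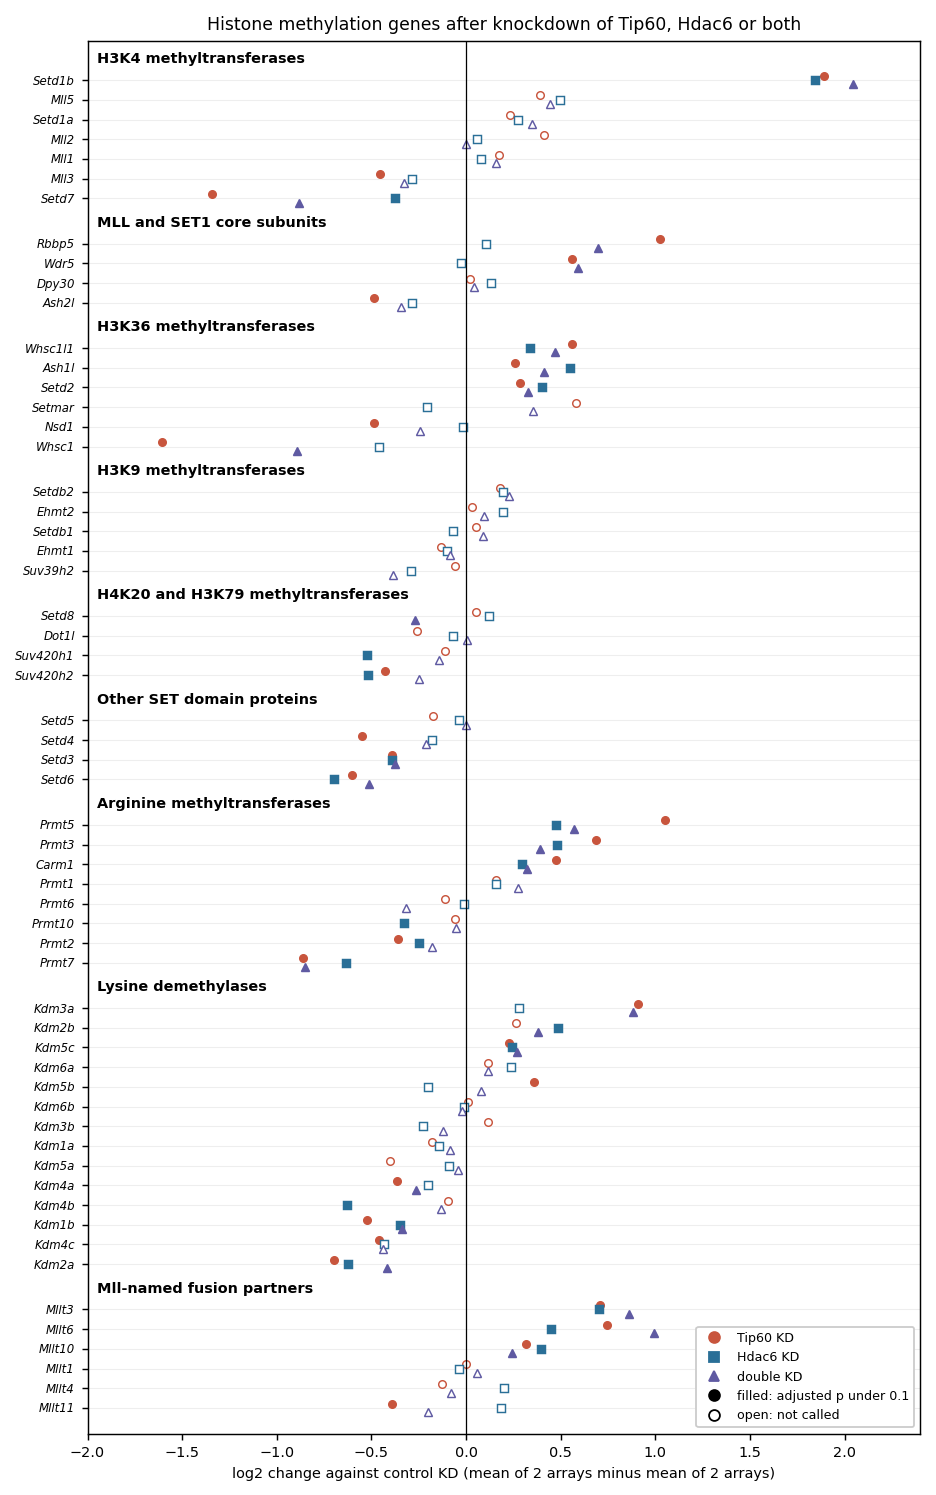
Log2 change of each of the 58 tested members against control KD (x axis), by role group, for Tip60 KD (circles), Hdac6 KD (squares) and double KD (triangles); filled symbols passed an adjusted p of 0.1. Setd1b stands apart to the right at 1.84 to 2.05 in all 3 knockdowns, and Whsc1 at -1.61 and Setd7 at -1.34 stand apart to the left after Tip60 KD.

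**Figure D2:**
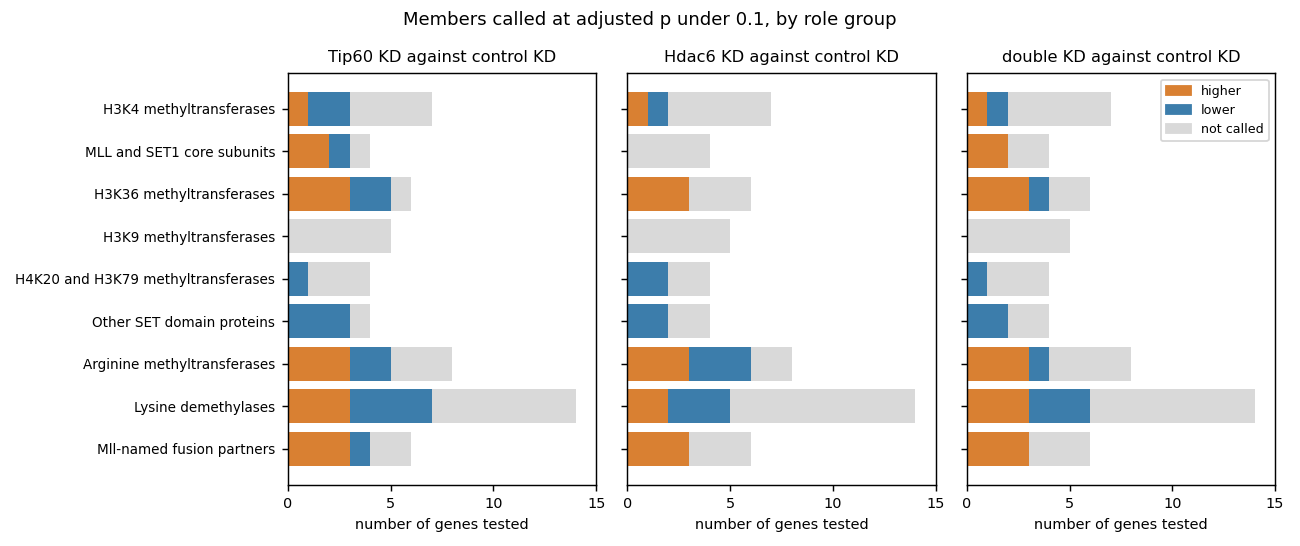
Number of tested members called higher, called lower or not called (bar segments, x axis) in each role group and knockdown. The 5 H3K9 methyltransferases have no called member in any panel, and the called SET domain proteins of the other group were lower in each panel.

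Among the 7 tested H3K4 methyltransferases, Setd1b and Setd7 moved far and in opposite directions. In Tip60 KD 1 rose and 2 fell, and after Hdac6 KD and after double KD 1 rose and 1 fell. Setd1b, the catalytic subunit of one of the SET1 complexes that place bulk H3K4 trimethylation, gave -0.41 and -0.46 on the control KD arrays, 1.51 and 1.41 after Tip60 KD, 1.42 and 1.41 after Hdac6 KD and 1.69 and 1.54 after double KD. Every knockdown array was far above both control arrays, and the 3 knockdowns lay close together. The log2 changes were 1.89 ± 0.08 (SE, n = 2 arrays a group, adjusted p = 0.000468), 1.84 ± 0.08 (adjusted p = 0.000966) and 2.05 ± 0.08 (adjusted p = 0.000724). Its probe lies at chr5:123617294-123617353 (mm9), and a second Setd1b probe was at the floor on all 8 arrays, so the change rests on 1 probe.

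Setd7, a monomethyltransferase of H3K4 that also acts on proteins other than histones, showed a graded pattern. Its values were -0.11 and -0.30 on the control KD arrays, -1.5 and -1.61 after Tip60 KD, -0.48 and -0.69 after Hdac6 KD and -1.11 and -1.08 after double KD. No groups overlapped, with Tip60 KD lowest, double KD next and Hdac6 KD closest to control KD. The change was -1.34 ± 0.11 after Tip60 KD (adjusted p = 0.00101), -0.38 ± 0.11 after Hdac6 KD (adjusted p = 0.0598) and -0.88 ± 0.11 after double KD (adjusted p = 0.00438). Tip60 KD and Hdac6 KD differed by -0.97 ± 0.11 (adjusted p = 0.00531).

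Mll3 (current symbol Kmt2c), a catalytic subunit of an MLL complex that acts at enhancers, fell after Tip60 KD (-0.46 ± 0.13, adjusted p = 0.0393) and had changes of -0.29 and -0.33 after Hdac6 KD and double KD, called with the replicate block alone (adjusted p = 0.0125 and 0.00705). Setd1a, the close relative of Setd1b, had changes of 0.23, 0.28 and 0.35, called with the replicate block alone (adjusted p = 0.0128, 0.00899 and 0.00379). Mll1 was above the floor on 4 arrays and Mll2 (Kmt2d) on 2, so little can be read from them. Mll5 (Kmt2e) gave -2.0 on the control KD array of slide A and 0.13 on that of slide B, and its changes had an SE of 1.03.

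**Figure D3:**
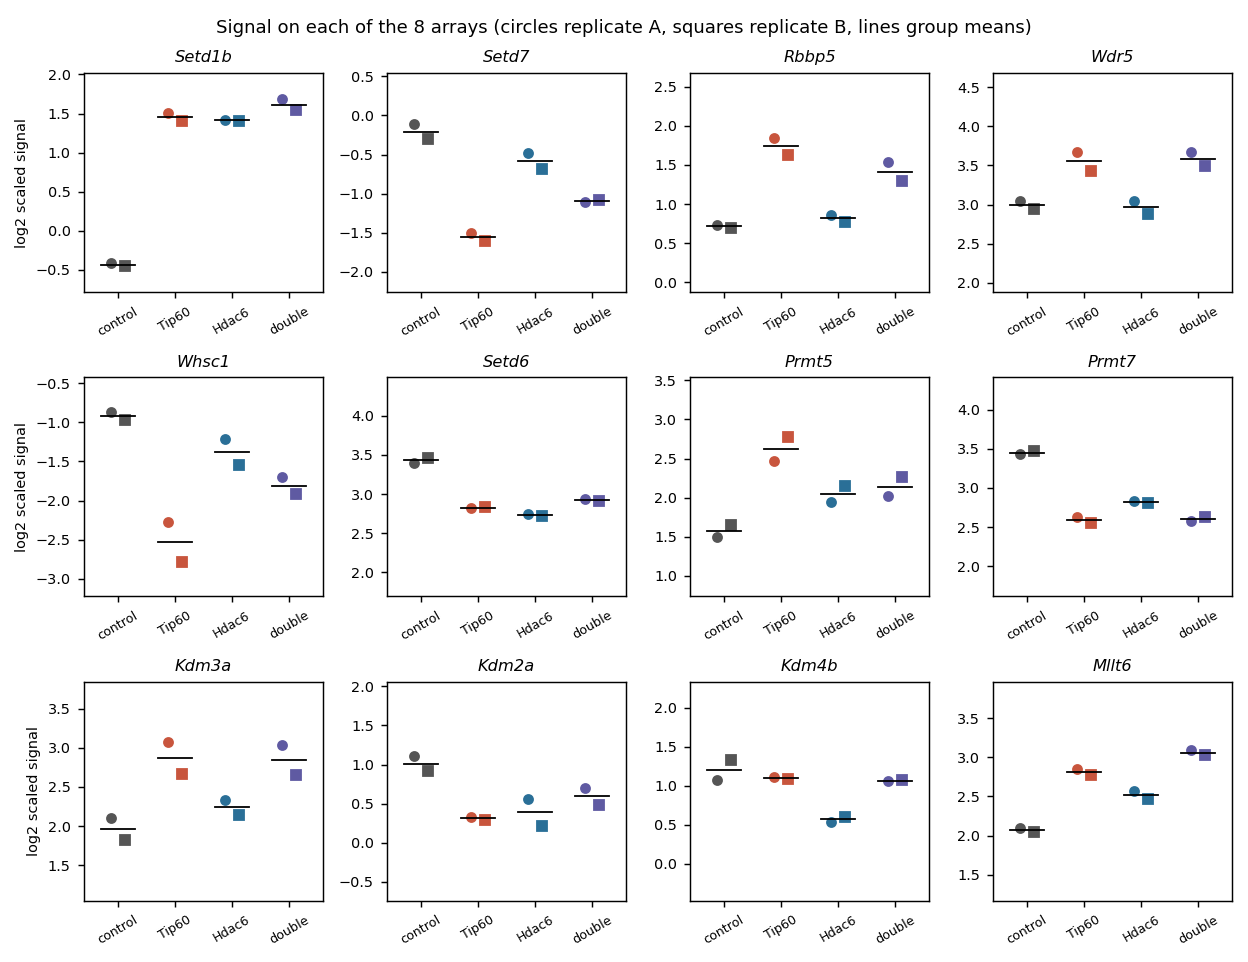
Log2 scaled signal (y axis, each panel spanning the same range of log2 units) on the 8 arrays for 12 members; circles are replicate A, squares replicate B and lines the means of 2 arrays. Setd1b is raised alike in the 3 knockdowns, Rbbp5, Wdr5 and Kdm3a are raised after Tip60 KD and double KD, and Kdm4b is low after Hdac6 KD, at 0.54 and 0.60.

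Rbbp5 and Wdr5, among the 4 core subunits of the MLL and SET1 complexes, rose with the Tip60 hairpin. Of the 4 subunits 2 rose and 1 fell after Tip60 KD, 0 were called after Hdac6 KD (0 at an unadjusted p below 0.05, and 1 lower with the replicate block) and 2 rose after double KD. Rbbp5, which with Ash2l stimulates the catalytic subunit, gave 0.73 and 0.70 on the control KD arrays, 1.85 and 1.63 after Tip60 KD, 0.86 and 0.77 after Hdac6 KD and 1.53 and 1.30 after double KD. Both groups with the Tip60 hairpin were above all other arrays. The change was 1.02 ± 0.12 after Tip60 KD (adjusted p = 0.00227), 0.10 ± 0.12 after Hdac6 KD (adjusted p = 0.621) and 0.70 ± 0.12 after double KD (adjusted p = 0.0105). Wdr5, the scaffold that holds the subunits together, gave 3.04 and 2.94 on the control KD arrays, 3.68 and 3.43 after Tip60 KD, 3.05 and 2.88 after Hdac6 KD and 3.67 and 3.49 after double KD. The groups again separated by the Tip60 hairpin, and Wdr5 rose by 0.56 ± 0.13 after Tip60 KD (adjusted p = 0.0191) and 0.59 ± 0.13 with both hairpins (adjusted p = 0.0213). Tip60 KD exceeded Hdac6 KD by 0.92 ± 0.12 for Rbbp5 (adjusted p = 0.00742) and by 0.59 ± 0.13 for Wdr5 (adjusted p = 0.0291), and double KD exceeded Hdac6 KD by 0.60 ± 0.12 (adjusted p = 0.0473) and 0.62 ± 0.13 (adjusted p = 0.0504). Ash2l fell after Tip60 KD (-0.49 ± 0.16, adjusted p = 0.0618) and had changes of -0.29 and -0.35 in the other knockdowns, called with the replicate block (adjusted p = 0.0134 and 0.0066). A second Ash2l probe was called lower in all 3 knockdowns, and the lead probe of Dpy30 had changes of 0.02 to 0.13, none called. A second, dimmer Dpy30 probe was called higher after Tip60 KD (0.55) and in neither other knockdown.

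Among the 6 tested H3K36 methyltransferases 3 rose and 2 fell after Tip60 KD, 3 rose after Hdac6 KD and 3 rose and 1 fell after double KD. Ash1l, Setd2 and Whsc1l1 rose in each by their lead probes. Setd2, the enzyme of H3K36 trimethylation, changed by 0.28, 0.40 and 0.33 after Tip60 KD, Hdac6 KD and double KD. Whsc1l1 (Nsd3), of the NSD family, changed by 0.56, 0.34 and 0.47, with control KD A at the floor, so its changes are from values close to the floor. A second, dimmer Whsc1l1 probe, above the floor on 6 arrays, changed by -0.27, -0.39 and -0.25, none called. Ash1l gave -2.26 and -2.44 on the control KD arrays, -2.05 and -2.13 after Tip60 KD, -1.80 and -1.80 after Hdac6 KD and -1.98 and -1.90 after double KD, again dim, with all knockdown arrays above both controls. Its change after Hdac6 KD was 0.55 ± 0.09 (adjusted p = 0.0112), but 0.45 and not called (adjusted p = 0.175) after quantile normalization, 0.30 (adjusted p = 0.0971) with normexp background correction, and 0.25 (adjusted p = 0.368) in the authors' own normalized values.

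Whsc1 (Nsd2), which places H3K36 dimethylation, had the lowest change of any member, and is named after its values were seen because 1 array was at the floor. Its lead probe gave -0.87 and -0.96 on the control KD arrays, -2.27 and -2.78 after Tip60 KD, -1.21 and -1.54 after Hdac6 KD and -1.70 and -1.92 after double KD. Control KD was highest and Tip60 KD lowest, with no overlap. The change was -1.61 ± 0.20 after Tip60 KD (adjusted p = 0.00297) and -0.89 ± 0.20 after double KD (adjusted p = 0.0265), and -0.46 ± 0.20 after Hdac6 KD was not called (adjusted p = 0.176, or 0.019 with the replicate block). The 3 other tested probes of Whsc1 had changes of 0.03, 0.13 and 0.13 after Tip60 KD, so the fall was seen by 1 of 4 probes. Nsd1 fell after Tip60 KD (-0.49 ± 0.12, adjusted p = 0.0253) and had a change of -0.01 after Hdac6 KD. A second, dimmer Nsd1 probe was called lower after Tip60 KD (-1.06) and double KD (-0.49).

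None of the 5 tested H3K9 methyltransferases (Ehmt1, Ehmt2, Setdb1, Setdb2 and Suv39h2) was called in any comparison by limma without the replicate block. In that fit 0 had an unadjusted p below 0.05 after Tip60 KD, Hdac6 KD or double KD. Their changes ran from -0.13 to 0.18 after Tip60 KD, from -0.29 to 0.20 after Hdac6 KD and from -0.38 to 0.23 after double KD. With the replicate block 1 was higher after Tip60 KD, 2 were higher and 1 lower after Hdac6 KD, and 1 was higher and 1 lower after double KD.

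Of the 4 methyltransferases for H4K20 and H3K79, 1 fell after Tip60 KD, 2 fell after Hdac6 KD and 1 fell after double KD. Suv420h2 (Kmt5c), which places the dimethyl and trimethyl marks of H4K20, gave 2.15 and 2.30 on the control KD arrays, 1.75 and 1.84 after Tip60 KD, 1.70 and 1.71 after Hdac6 KD and 2.04 and 1.91 after double KD. Both single knockdowns were below control KD and below double KD. The change was -0.43 ± 0.09 after Tip60 KD (adjusted p = 0.0161), -0.52 ± 0.09 after Hdac6 KD (adjusted p = 0.014) and -0.25 ± 0.09 after double KD (adjusted p = 0.102, or 0.0504 with the replicate block). Setd8 (Kmt5a), the monomethyltransferase of H4K20, changed by 0.05 and 0.12 in the single knockdowns, not called, and by -0.27 ± 0.09 after double KD (adjusted p = 0.073). These are from the lead probe. A second, dimmer Setd8 probe changed by -0.04, 0.32 and 0.37 after Tip60 KD, Hdac6 KD and double KD, none called. Dot1l, the H3K79 methyltransferase, had changes of -0.26, -0.07 and 0.01, none called without the replicate block, which called the first (adjusted p = 0.0205).

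All called genes among the 4 other SET domain proteins fell: 3 after Tip60 KD, 2 after Hdac6 KD and 2 after double KD. Setd6, which is known for methylating the RelA subunit of NF-kappaB and not mainly for histones, gave 3.40 and 3.46 on the control KD arrays, 2.82 and 2.83 after Tip60 KD, 2.74 and 2.72 after Hdac6 KD and 2.93 and 2.91 after double KD. The replicates of each group nearly coincided and no groups overlapped. The change was -0.60 ± 0.07 (adjusted p = 0.00212), -0.70 ± 0.07 (adjusted p = 0.00301) and -0.51 ± 0.07 (adjusted p = 0.00534). Setd3, an actin histidine methyltransferase, fell by 0.39, 0.39 and 0.38 on the log2 scale, and Setd4 fell by 0.55 after Tip60 KD.

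Among the arginine methyltransferases Prmt5, Prmt3 and Carm1 rose and Prmt7 fell in all 3 knockdowns, and Prmt1 and Prmt6 were called in none. Of 8 tested, 3 rose and 2 fell after Tip60 KD, 3 rose and 3 fell after Hdac6 KD and 3 rose and 1 fell after double KD. Prmt5, the main enzyme of symmetric arginine dimethylation, gave 1.5 and 1.65 on the control KD arrays, 2.47 and 2.77 after Tip60 KD, 1.94 and 2.15 after Hdac6 KD and 2.02 and 2.27 after double KD. Tip60 KD was highest, control KD lowest, and Hdac6 KD and double KD overlapped between them. The change was 1.05 ± 0.15 (adjusted p = 0.00446), 0.47 ± 0.15 (adjusted p = 0.0791) and 0.57 ± 0.15 (adjusted p = 0.0429), and Tip60 KD exceeded Hdac6 KD by 0.58 ± 0.15 (adjusted p = 0.0536). Prmt3, which methylates a ribosomal protein, gave 1.09 and 1.28 on the control KD arrays, 1.81 and 1.94 after Tip60 KD, 1.57 and 1.77 after Hdac6 KD and 1.5 and 1.65 after double KD. All knockdown arrays were above both controls. Carm1, the coactivator-associated methyltransferase, rose by 0.47, 0.29 and 0.32 in the same order.

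Prmt7, an enzyme of arginine monomethylation, was the arginine methyltransferase that fell most. It gave 3.43 and 3.48 on the control KD arrays, 2.63 and 2.55 after Tip60 KD, 2.83 and 2.80 after Hdac6 KD and 2.57 and 2.63 after double KD. All knockdown arrays were below both controls, and those of Tip60 KD and double KD overlapped. The change was -0.86 ± 0.07 (adjusted p = 0.00107), -0.64 ± 0.07 (adjusted p = 0.00432) and -0.85 ± 0.07 (adjusted p = 0.00187), and a second Prmt7 probe, dimmer, was also lower in all 3 (-0.38, -0.40 and -0.62). Prmt2 fell in both single knockdowns (-0.36 and -0.25), and Prmt10 (Prmt9) fell after Hdac6 KD (-0.33).

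Of the 14 tested lysine demethylases 3 rose and 4 fell after Tip60 KD, 2 rose and 3 fell after Hdac6 KD and 3 rose and 3 fell after double KD. Kdm3a, an H3K9 demethylase, gave 2.10 and 1.82 on the control KD arrays, 3.07 and 2.67 after Tip60 KD, 2.34 and 2.14 after Hdac6 KD and 3.03 and 2.65 after double KD. As with Rbbp5 and Wdr5, the groups with the Tip60 hairpin were above all other arrays. The change was 0.91 ± 0.20 after Tip60 KD (adjusted p = 0.0186) and 0.88 ± 0.20 after double KD (adjusted p = 0.0271), and 0.28 ± 0.20 after Hdac6 KD (adjusted p = 0.409) was not called, but was with the replicate block (adjusted p = 0.0258). Without control KD B or double KD A the double KD call was lost (0.74, adjusted p = 0.127, and 0.69, adjusted p = 0.116).

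Kdm2a and Kdm2b, paralogous H3K36 demethylases that bind CpG islands, differed in direction by their lead probes. Kdm2a gave 1.1 and 0.92 on the control KD arrays, 0.33 and 0.30 after Tip60 KD, 0.56 and 0.22 after Hdac6 KD and 0.70 and 0.48 after double KD, with every knockdown array below both controls. The change was -0.70 ± 0.15 (adjusted p = 0.0156), -0.62 ± 0.15 (adjusted p = 0.0326) and -0.42 ± 0.15 (adjusted p = 0.0924). A second, dimmer Kdm2a probe changed the other way, by 0.29, 0.27 and 0.16, none called. With the mean of the probes or the compared arrays alone, the calls after Hdac6 KD and double KD were lost. A lower floor or no filter on dim probes also lost the double KD call. The call after double KD was lost without either control KD, either Tip60 KD or either double KD array (adjusted p = 0.119 to 0.329), and that after Hdac6 KD without control KD A (adjusted p = 0.149) or Hdac6 KD B (adjusted p = 0.138). Kdm2b gave 1.80 and 1.73 on the control KD arrays, 2.15 and 1.91 after Tip60 KD, 2.31 and 2.20 after Hdac6 KD and 2.22 and 2.07 after double KD, again with no overlap between control and knockdown arrays. These values are from the lead probe. A second, dimmer Kdm2b probe was called higher after Tip60 KD (0.86), Hdac6 KD (0.65) and double KD (0.48). Another, with only 2 arrays above the floor, was called in none. The lead probe rose by 0.49 ± 0.11 after Hdac6 KD (adjusted p = 0.0312) and 0.38 ± 0.11 after double KD (adjusted p = 0.0591). Its 0.27 ± 0.11 after Tip60 KD was not called (adjusted p = 0.132, or 0.0162 with the replicate block). The Hdac6 KD call was lost without control KD A (adjusted p = 0.101), control KD B (adjusted p = 0.132) or Hdac6 KD A (adjusted p = 0.137).

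Kdm4b, an H3K9 and H3K36 demethylase, separated the Hdac6 KD arrays from the rest. It gave 1.07 and 1.32 on the control KD arrays, 1.12 and 1.09 after Tip60 KD, 0.54 and 0.60 after Hdac6 KD and 1.05 and 1.07 after double KD. Both Hdac6 KD arrays were below all others, and the other 3 groups lay between 1.05 and 1.32. The change was -0.63 ± 0.10 after Hdac6 KD (adjusted p = 0.0104), against -0.10 ± 0.10 after Tip60 KD and -0.13 ± 0.10 after double KD, neither called, and Tip60 KD and double KD exceeded Hdac6 KD by 0.53 ± 0.10 (adjusted p = 0.0196) and 0.49 ± 0.10 (adjusted p = 0.0496). Kdm5b, an H3K4 demethylase, rose after Tip60 KD by 0.36 ± 0.07 (adjusted p = 0.013) and was 0.56 ± 0.07 higher there than after Hdac6 KD (adjusted p = 0.00727). Its lead probe changed by 0.08 after double KD, not called, while the next brightest was called higher after Tip60 KD (0.66) and double KD (0.65). A dimmer Kdm5b probe was called after double KD (0.45), and another in none. Kdm5c rose by 0.22, 0.24 and 0.27, and Kdm1b fell by 0.52, 0.35 and 0.34. Kdm1a, the H3K4 demethylase of the CoREST complex, had changes of -0.18 to -0.08, none called without the replicate block (adjusted p = 0.0492 with it after Tip60 KD).

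The Mllt genes, which are not methylation enzymes, gave 3 higher and 1 lower of 6 after Tip60 KD, 3 higher after Hdac6 KD and 3 higher after double KD. Mllt6 gave 2.10 and 2.04 on the control KD arrays, 2.85 and 2.78 after Tip60 KD, 2.57 and 2.47 after Hdac6 KD and 3.09 and 3.03 after double KD. No groups overlapped, and double KD was highest. The change was 0.74 ± 0.08 (adjusted p = 0.00176), 0.45 ± 0.08 (adjusted p = 0.0135) and 0.99 ± 0.08 (adjusted p = 0.00161). Mllt3, a reader of acylated lysine, gave -2.37 and -2.48 on the control KD arrays, -1.70 and -1.73 after Tip60 KD, -1.75 and -1.69 after Hdac6 KD and -1.57 and -1.56 after double KD. All knockdown arrays were above both controls, by 0.71 ± 0.07 (adjusted p = 0.00178), 0.70 ± 0.07 (adjusted p = 0.0037) and 0.86 ± 0.07 (adjusted p = 0.00195). With normexp background correction and in the authors' normalized values the Mllt3 change was 0.44 and 0.42 after Hdac6 KD and 0.53 and 0.53 after double KD, still called. Without the 6 Mllt genes the counts were 12 higher and 15 lower of 52 after Tip60 KD, 9 and 11 after Hdac6 KD and 12 and 9 after double KD. These were 51.9%, 38.5% and 40.4%, beside 40.4%, 30.0% and 33.7% of all genes.

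Several members had more than 1 tested probe, and these did not always move together. Of 21 such genes, Prmt6 after Tip60 KD and after double KD and Suv420h1 after Hdac6 KD had probes called in opposite directions. The lead probe of Prmt6, an enzyme of H3R2 methylation, differed between slides more than between groups. It gave -0.23 on slide A and -1.76 on slide B in control KD, and -0.45 and -1.76, -0.47 and -1.54, and -0.62 and -2.0 after Tip60 KD, Hdac6 KD and double KD. A second probe was called higher by 1.21, 1.21 and 1.32 in the 3 knockdowns, and another, dimmer probe lower by 0.59 and 0.59 after Tip60 KD and double KD, with only 4 arrays above the floor. The lead probe of Suv420h1 (Kmt5b) fell by 0.53 after Hdac6 KD while 2 others were called higher (0.89 and 0.34), and its call was lost without control KD A (adjusted p = 0.122) or Hdac6 KD B (adjusted p = 0.138). For Kdm2a and Mllt3 the second probe was not called in any knockdown, and the mean of the probes was not called either (after Hdac6 KD -0.18 and 0.42, adjusted p = 0.494 and 0.343). Prmt1, whose lead probe had changes of 0.16, 0.16 and 0.27, the last called with the replicate block alone (adjusted p = 0.0253), had a second probe called higher by 0.77, 0.52 and 0.51. Over single probes 41, 32 and 35 of the 88 member probes tested were called in the 3 knockdowns, in the same order (46.6%, 36.4% and 39.8%), beside 41.3%, 30.8% and 34.6% of all 22518 probes.

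**Figure D4:**
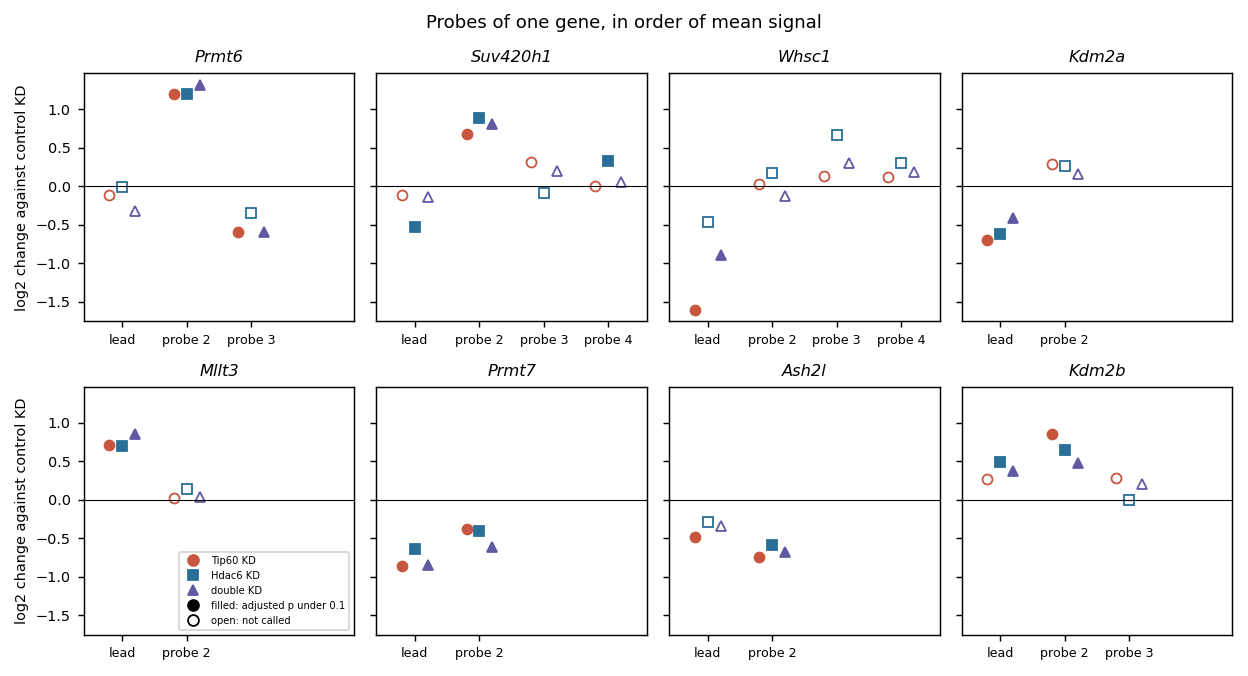
Log2 change against control KD (y axis) for each tested probe of 8 members, from the brightest (lead) to the dimmest; circles are Tip60 KD, squares Hdac6 KD and triangles double KD, filled where called over all probes. The probes of Prmt7 and Ash2l move one way, while those of Prmt6 and Suv420h1 lie on both sides of 0 and the fall of Whsc1 is seen by the lead probe alone.

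Tip60 KD and Hdac6 KD were then compared directly. Of the 58 members 9 were higher and 7 lower after Tip60 KD than after Hdac6 KD, beside 24.0% of all genes (12.1% higher, 11.9% lower). Rbbp5, Wdr5, Kdm3a, Kdm4b and Kdm5b were among the higher, with 0.63 ± 0.20 for Kdm3a (adjusted p = 0.0907). Whsc1 (-1.15 ± 0.20, adjusted p = 0.0166) and Setd7 were among the lower. Under the replicate block 29 were called (50%), beside 41.5% of all genes. The count was 9 without Tip60 KD A, 8 without Tip60 KD B, 5 without Hdac6 KD A and 6 without Hdac6 KD B.

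Double KD differed from Hdac6 KD in 5 members that were higher and 2 that were lower, beside 11.0% of all genes (5.96% higher, 5.04% lower). Those higher were Rbbp5, Wdr5, Mllt6 (0.54 ± 0.08, adjusted p = 0.0214), Kdm4b and Kdm5b (0.28 ± 0.07, adjusted p = 0.0838), and those lower were Setd7 (-0.51 ± 0.11, adjusted p = 0.0577) and Setd8 (-0.39 ± 0.09, adjusted p = 0.0617). By the second Setd8 probe the difference was 0.06, not called. The replicate block gave 19 (32.8%), near the 29.5% of all genes. The counts that follow with an array left out lack the share of all genes and are not to be read as particular to the members. Leaving out either Hdac6 KD array or either double KD array left 0 members called. Against Tip60 KD, 0 members were called after double KD by limma without the replicate block, beside 4.07% of all genes. In that fit 9 members had an unadjusted p below 0.05. There the replicate block called 16 (27.6%), near the 26.6% of all genes. The member changes between these groups ran from -0.48 to 0.72, so differences of that size were not resolved without the block.

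The interaction term, the log2 change of double KD less both single changes, was called for 19 members, 10 positive and 9 negative, beside 23.1% of all genes (12.4% positive, 10.7% negative). It was positive for members that fell and negative for members that rose in at least 1 single knockdown, save Setd8, whose single changes were not called. The term from the second Setd8 probe was 0.10 and that from the second Whsc1l1 probe 0.41, neither called. For Setd1b it was -1.69 ± 0.12 (adjusted p = 0.0068), with single changes of 1.89 and 1.84 and a double KD change of 2.05. The next lowest were Prmt5 (-0.96 ± 0.22, adjusted p = 0.0382) and Prmt3 (-0.78 ± 0.17, adjusted p = 0.0335). Among those above the floor on all arrays Kdm2a (0.90 ± 0.21, adjusted p = 0.04), Setd7 (0.83 ± 0.15, adjusted p = 0.023) and Setd6 (0.79 ± 0.10, adjusted p = 0.00959) had the highest terms. With the mean of the probes the Kdm2a term was 0.25 (adjusted p = 0.525), and with no filter on dim probes neither it (adjusted p = 0.106) nor the Prmt5 term (adjusted p = 0.103) was called. The Prmt5 term was also not called without control KD A, Hdac6 KD B or double KD A (adjusted p = 0.106 to 0.124), the Prmt3 term without Tip60 KD B or Hdac6 KD B (adjusted p = 0.101 and 0.107), nor the Kdm2a term without control KD A, either Tip60 KD array, Hdac6 KD B or double KD A (adjusted p = 0.101 to 0.12). The control arrays enter both single changes and the term with opposite signs, so these values are not independent. Under the replicate block 35 terms were called (60.3%), beside 47.0% over all genes. The count was 11 without control KD A or without Tip60 KD B, 10 without Hdac6 KD A, 7 without Hdac6 KD B, 9 without double KD A and 12 without double KD B.

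**Figure D5:**
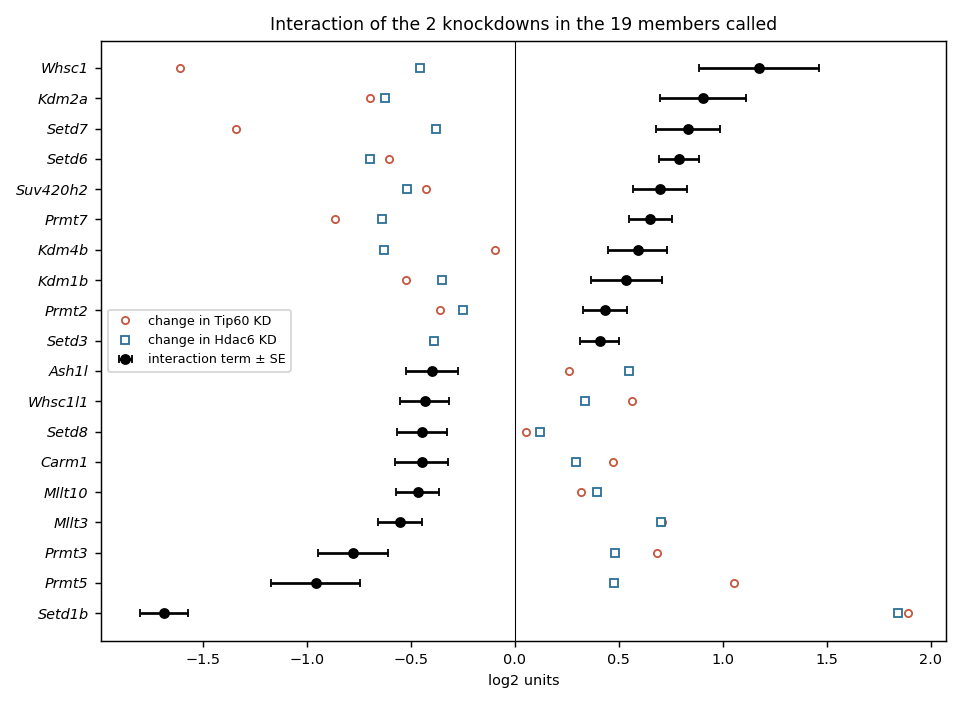
Interaction term with its SE (black points and bars, x axis in log2 units) for the 19 members called, with the change after Tip60 KD (open circles) and Hdac6 KD (open squares). Each term lies across 0 from the single changes of its gene, from -1.69 for Setd1b to 1.17 for Whsc1.

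Related histone methylation genes that the name rule leaves out were read from a list of their own. Of 44 tested, 15 rose and 12 fell after Tip60 KD, 13 rose and 7 fell after Hdac6 KD and 13 rose and 9 fell after double KD, and 0 rose and 4 fell after double KD against Tip60 KD. These were 61.4%, 45.5% and 50% of the list in the 3 knockdowns, beside the 40.4%, 30.0% and 33.7% of all genes. The following were picked from it after their values were seen. Wdr77, the partner subunit of Prmt5, rose with it by 0.86 ± 0.13, 0.65 ± 0.13 and 0.41 ± 0.13. Other Prmt5 partners on the list differed. Clns1a averaged 2.76 in control KD, 3.11 after Tip60 KD, 3.23 after Hdac6 KD and 2.70 after double KD. Riok1 averaged 0.23, 0.67, 0.34 and 0.17 in that order, so neither was raised after double KD. Cxxc1, the CpG-binding subunit of the SET1 complexes, rose by 0.63 ± 0.09, 0.60 ± 0.09 and 0.50 ± 0.09. Of other SET1 subunits on the list, Wdr82 averaged 3.68 in control KD and 3.52, 3.55 and 3.66 in the knockdowns, raised in none. Hcfc1 averaged 3.29 in control KD and 3.64, 3.44 and 3.64 in the knockdowns. Of the core of Polycomb repressive complex 2, which methylates H3K27, Ezh2 fell after Tip60 KD (-0.79 ± 0.11) and double KD (-0.59 ± 0.11), and after Hdac6 KD (-0.21 ± 0.11) was called with the replicate block alone (adjusted p = 0.0238), Suz12 fell in all 3 (-0.46 ± 0.11, -1.70 ± 0.11 and -1.11 ± 0.11), and Eed had changes of -0.19 to -0.05, none called without the replicate block (adjusted p = 0.04 with it after Tip60 KD). Ezh1, the paralog of Ezh2, fell by 1.20, 1.03 and 1.00 on the log2 scale, and Jarid2, which joins the same complex, rose by 0.53, 0.33 and 0.59.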

How the data were processed

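RNA from 8 cultures (4 groups, replicates A and B) was hybridised by the authors to Agilent whole-genome mouse arrays, 1 colour. Per the file headers the spot intensity was quantified and background-subtracted with Agilent Feature Extraction 10.7.1.1, with probe positions on mm9. The authors also deposited a log2 table, quantile-normalized as far as its values show, used here as an alternative. From the processed intensity, spots of 1 probe were averaged, outlier flags left out, values divided by the 75th percentile of the array and raised to a common floor (0.145 of that percentile, log2 -2.78, the lowest level well above background on the dimmest array), and log2 taken. A probe passed with 2 arrays above the floor, and the passing probe of highest mean signal stood for its gene. limma 3.58.1 (R 4.3.3) fitted the 4 groups together (4 residual and 1.81 prior degrees of freedom), 2-sided, with Benjamini-Hochberg over 17977 genes and the study's threshold of 0.1. In simulated data for 17811 genes with 200 changed by 1 log2 unit, 127, 139 and 137 were recovered (Tip60 KD, Hdac6 KD, then double KD), with 20, 14 and 23 false calls. The simulated noise was independent between arrays, without the slide differences described below, and far fewer genes changed than were called in the data. These rates therefore need not hold for the data.

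The replicate letters mark slide and scan per the file headers. The differences between A and B correlated between all 6 pairs of groups (r 0.6505 to 0.7983, 17811 genes), so the letters pair the arrays and the slide was fitted as a block beside each result. Named members are the 4 with the largest called change in each direction and knockdown and the 3 with the largest called interaction in each direction, all above the floor on all arrays, the called member of smallest adjusted p in Tip60 KD of a role group not named so far, members with probes called in opposite directions, Kat5 and Hdac6. The members, role groups, marker list and list of related genes were chosen with earlier results of these data known. Gene names are those of the array, and 59 of 62 matched a current symbol by accession. Promoters are from RefSeq (GRCm38.p6), for 44 of the 58 tested members. Alternatives were the scaling, background correction, floor, filter, probe rule, slide, samples fitted, threshold and each array left out. Whether a probe lies in an exon or UTR on mm9 was not analysed here.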

Additional observations from a re-analysis of the deposited data

Results flagged for a closer look

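The response to one knockdown differed with the other in 19 of 58 members (32.8%), beside 23.1% of all genes. The call was by the interaction term of limma without the replicate block (adjusted p below 0.1 over all genes). The term was positive for Whsc1 (1.17, with 1 array at the floor), Kdm2a (0.90), Setd7 (0.83), Setd6 (0.79), Suv420h2 (0.70), Prmt7 (0.65), Kdm4b (0.59), Kdm1b (0.53), Prmt2 (0.43) and Setd3 (0.41). It was negative for Ash1l (-0.40), Whsc1l1 (-0.43), Setd8 (-0.45), Carm1 (-0.45), Mllt10 (-0.47), Mllt3 (-0.55), Prmt3 (-0.78), Prmt5 (-0.96) and Setd1b (-1.69). Their adjusted p ran from 0.0068 for Setd1b to 0.0945 for Kdm1b. All 4 groups enter each term, and 2 control arrays enter the single changes of every gene. Hdac6 was less depleted in double KD than in Hdac6 KD, and its part in these terms was not tested. With the mean of the probes the Kdm2a term was 0.25, not called. The fall of Whsc1 was seen by its lead probe alone. The second probes of Setd8 and Whsc1l1 gave terms of 0.10 and 0.41, neither called.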

How the results depend on the processing

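Of 660 recomputed values for named genes, 613 kept their direction and side of the threshold, 39 lost the call, 1 gained it and 7 changed sign. For 23 of 37 results every alternative left both as they were. With each array left out in turn, where the lone array of a group is taken to vary like the others, called members ranged from 23 to 29 in Tip60 KD, 11 to 23 in Hdac6 KD, 12 to 22 in double KD, 5 to 14 for Tip60 KD against Hdac6 KD, 0 to 6 for double KD against Hdac6 KD and 7 to 15 for the interaction, and stayed at 0 for double KD against Tip60 KD. The replicate block gave 40, 39, 39, 29, 19, 35 and 16 in that order, with the same arrays. Fitting the compared arrays alone gave 15 in double KD, 7 for Tip60 KD against Hdac6 KD and 0 for double KD against Hdac6 KD. Double KD against Hdac6 KD gave 4 with normexp background correction and 4 with the authors' normalized values. Double KD against Tip60 KD gave 1 after quantile normalization, 1 without a filter, 1 with the mean of the probes and 2 with genes above the floor on all arrays. Tip60 KD against Hdac6 KD gave 10 without a filter. At an adjusted p under 0.05 these gave 8 for Tip60 KD against Hdac6 KD and 3 for double KD against Hdac6 KD. At 2-fold or more the counts were 5, 1, 1, 1, 0 and 2, leaving out double KD against Tip60 KD. Beside these stood 904, 438, 528, 337, 144 and 727 of all 17977 genes. With the mean of the probes Prmt6 turned to 0.17 in Tip60 KD and 0.14 in double KD and Suv420h1 to 0.15 in Hdac6 KD. Prmt6 also turned to 0.65 without control KD A and 0.54 without Tip60 KD B in Tip60 KD, where these values ranged down to -0.87, and to 0.44 without control KD A and 0.37 without double KD B in double KD, where they ranged down to -1.08. The cause of these shifts was not tested, save that fewer arrays leave fewer degrees of freedom. Member counts with an array left out or with other processing are given without the share of all genes. A loss of calls there is not to be read as particular to the members. Each group has 2 arrays, which limits the precision, and dim probes have no order at the floor.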
